A study of Mus musculus with 4 samples.

Results

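Mast cells of the newborn heart were described in 4 single-cell RNA libraries of CD45+ cells, that is, of the leukocytes that a cell sorter recovered from digested mouse hearts. Of 23961 cells kept in all, 72 met the definition used. A kept cell had at least 500 unique molecular identifiers (UMIs, 1 per captured RNA molecule), at least 200 genes and at most 10% mitochondrial UMIs. A mast cell in addition had at least 5 UMIs of Cpa3, at least 2 UMIs of Mcpt4, Cma1, Tpsb2 and Kit together, and at most 2 UMIs of Mcpt8 and Prss34 together. All mice were C57BL/6, had surgery on postnatal day 2 and gave their hearts, with atria removed, 7 days later. The 4 groups were PD1 knockout mice after myocardial infarction (KO_MI, 13 mast cells), PD1 knockout mice after sham surgery (KO_sham, 12 mast cells), PD1 heterozygous mice after infarction (Het_MI, 29 mast cells) and PD1 heterozygous mice after sham surgery (Het_sham, 18 mast cells). The heterozygous mice, which carry 1 deleted copy of the gene for the checkpoint receptor PD1, served as the controls, and there was no wild-type group. Each group was 1 library, and how many hearts went into a library is not given in the sources used here. No test between groups is therefore possible, and each interval below covers counting error only.

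Mast cells are tissue-resident cells that mature under the growth factor receptor Kit and store serine proteases, the carboxypeptidase Cpa3, histamine and proteoglycans in secretory granules. Mice have a connective tissue type, marked by the chymases Mcpt4 and Cma1 and the tryptases Tpsb2 and Tpsab1, and a mucosal type, marked by Mcpt1 and Mcpt2. Cross-linked IgE on the receptor FcεRI, or a ligand of the receptor Mrgprb2, makes them release their granules and produce lipid mediators and cytokines. Basophils are their closest blood relatives, and the definition used here tells them apart by Mcpt8 and Prss34. In the heart, mast cell chymase is known as an enzyme that forms angiotensin II.

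The label held for most of the 72 cells and failed for some. In 62 of them, Mcpt4, Cma1 and Tpsb2 together reached at least 100 UMIs (136 UMIs in the lowest), and each of these 62 protease-rich cells held at least 3 of 9 mast cell markers that the definition did not use (Fcer1a, Ms4a2, Hdc, Slc18a2, Tpsab1, Gata2, Il1rl1, Mrgprb2 and Cyp11a1), with a median of 8. The other 10 had at most 27 UMIs of the 3 proteases, and 8 of these 10 came from Het_sham. In 7 of the 10, 1 in KO_MI and 6 in Het_sham, the 3 proteases summed to 0 to 2 UMIs beside 6 to 21 UMIs of Cpa3 and 2 to 8 UMIs of Kit. All 7 held Trbc2, a T cell receptor constant region, at 21 to 74 UMIs. They also held Tcf7, a transcription factor of the T cell lineage, at 3 to 21 UMIs, the interleukin 2 receptor chain Il2ra at 1 to 14 UMIs and Ly6d at 8 to 30 UMIs, while the 50 mast cells defined next had 2 UMIs of Trbc2 in all and none of Il2ra. Other T cell genes were not in all 7: the CD3 chain Cd3g was in 3, the transcription factor Bcl11b in 4, and Ptcra, Rag1 and Dntt, genes of early T cell development, had no UMI in any. These 7 droplets had 0 to 2 of the 9 markers, and no UMI of Fcer1a, Ms4a2, Tpsab1, Mrgprb2 or Il1rl1. They were large, at 17898 to 44083 UMIs in the 6 from Het_sham, and supplied 72.8% of all UMIs of the Het_sham group, against 28.5% of those in KO_MI.

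A further 12 of the 62 protease-rich cells held at least 3 UMIs of genes that mark another lineage (macrophage, neutrophil, B, T or NK, endothelial or red cell), 2 each in KO_MI and KO_sham, 6 in Het_MI and 2 in Het_sham. In Het_MI, 3 such droplets exceeded 50000 UMIs and together held 179125 of the 384419 UMIs of that group. The remaining 50 droplets, 10 in KO_MI, 9 in KO_sham, 23 in Het_MI and 8 in Het_sham, were protease-rich and held fewer than 3 UMIs of the genes of each other lineage. They are called the 50 mast cells below, a choice made after the data were seen. Levels are given in them unless all 72 are named, and the comparisons between libraries are given for both. The 50 cells held 307550 UMIs in all, with medians of 4863.5 UMIs a cell in KO_MI, 5163 in KO_sham, 6862 in Het_MI and 5325.5 in Het_sham.

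**Figure D1:**
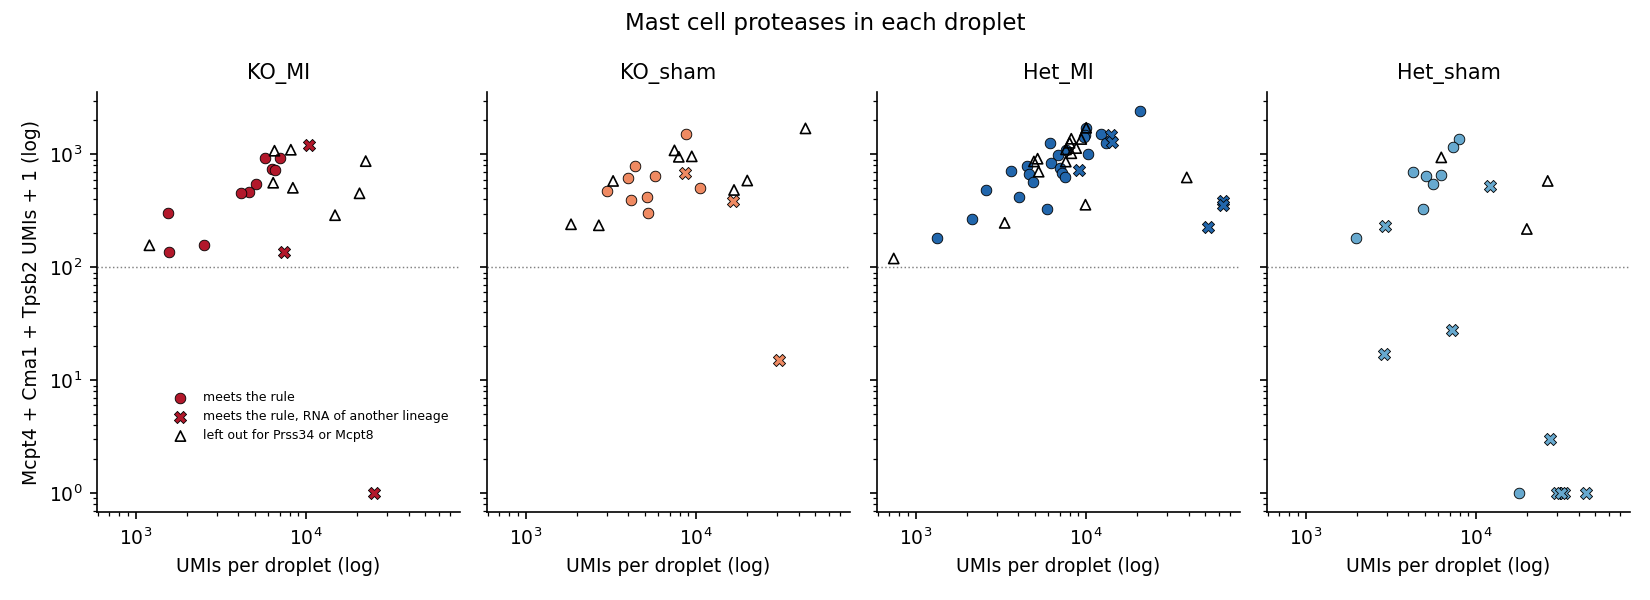
Each point is 1 droplet, with its total UMIs on the log x axis and its UMIs of Mcpt4, Cma1 and Tpsb2 plus 1 on the log y axis, in KO_MI, KO_sham, Het_MI and Het_sham from left to right. Filled points meet the definition (crosses carry RNA of another lineage) and open triangles are protease-rich droplets left out for Prss34 or Mcpt8. The dotted line marks 100 UMIs, and between 27 UMIs and 136 UMIs no member was found.

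The members were chosen by their UMIs of Cpa3, Mcpt4, Cma1, Tpsb2, Kit, Mcpt8 and Prss34, so that the values of these genes are a description. Close to the Cpa3 threshold, 7 members had 5 to 9 UMIs, and 14 cells that met the other conditions had 2 to 4 UMIs and stayed out. A further 14 cells with enough Cpa3 had 0 or 1 UMI of the other 4 genes. The limit on Mcpt8 and Prss34 kept out 38 cells, of which 35 were protease-rich, and 13 members had 1 or 2 UMIs of these genes. In B cells of the same libraries, which should lack mast cell RNA, 1.71% had a UMI of Cma1 and 0.97% a UMI of Cpa3, at a median depth of 6386 UMIs against 5661 UMIs in the 50 mast cells. Any 2 libraries shared 7 to 16 cell barcodes, and none of these was a mast cell. The libraries differed in the sex of their cells. A UMI of a Y-linked gene was seen in 0 of 13 mast cells in KO_MI, 5 of 12 in KO_sham, 20 of 29 in Het_MI and 8 of 18 in Het_sham, and in 1 of 7091 other cells in KO_MI, against 3038 of 5045 in Het_MI. Genotype, surgery, library and sex therefore cannot be told apart in comparisons with KO_MI. Among protease-rich cells the Y-linked share also differed between the other libraries, at 5 of 11 in KO_sham, 20 of 29 in Het_MI and 1 of 10 in Het_sham. Sex therefore cannot be told apart from surgery in Het_MI over Het_sham, or from genotype in KO_sham over Het_sham.

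The protease genes lie in 2 clusters and 1 separate locus (GRCm38, GENCODE M21). Cma1 (chr14:55941451-55944675), Mcpt2 (chr14:56042041-56044642), Mcpt4 (chr14:56059629-56062313), Mcpt8 (chr14:56082166-56085273) and Ctsg (chr14:56099881-56102574) are neighbours on chromosome 14. Prss34 (chr17:25298394-25300165), Tpsab1 (chr17:25343245-25345562) and Tpsb2 (chr17:25366305-25369098) are neighbours on chromosome 17, and Cpa3 lies alone at chr3:20215620-20242181. Near-identical members of these families can share reads, so that the split of UMIs between them is uncertain. GATA factors, of which mast cells express Gata2, bind a core that can be written GATAA. The 250 bases before the start of Cpa3, Mcpt4, Cma1 and Prss34 each held it or its reverse complement TTATC once. The windows of Kit and Mcpt8, also genes of the definition, held none. Tpsb2, the remaining gene of the definition, had no window. The 4 genes of the definition with a match are shown, 5′ to 3′ on the strand of the gene, from RefSeq on GRCm38.p6, with the match in capitals.
Cpa3: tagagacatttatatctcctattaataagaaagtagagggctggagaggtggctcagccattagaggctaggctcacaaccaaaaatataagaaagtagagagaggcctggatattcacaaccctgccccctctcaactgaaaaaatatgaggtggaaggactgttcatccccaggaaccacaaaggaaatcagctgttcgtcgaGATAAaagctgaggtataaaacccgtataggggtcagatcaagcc
Mcpt4: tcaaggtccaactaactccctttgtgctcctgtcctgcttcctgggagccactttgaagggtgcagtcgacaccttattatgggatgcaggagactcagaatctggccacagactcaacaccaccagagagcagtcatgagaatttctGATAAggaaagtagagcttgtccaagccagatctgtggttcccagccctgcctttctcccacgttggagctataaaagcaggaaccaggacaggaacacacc
Cma1: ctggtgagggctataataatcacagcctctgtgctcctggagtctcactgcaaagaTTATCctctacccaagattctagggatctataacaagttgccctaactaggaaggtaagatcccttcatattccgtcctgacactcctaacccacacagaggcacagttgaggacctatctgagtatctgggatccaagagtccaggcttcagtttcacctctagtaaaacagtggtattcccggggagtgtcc
Prss34: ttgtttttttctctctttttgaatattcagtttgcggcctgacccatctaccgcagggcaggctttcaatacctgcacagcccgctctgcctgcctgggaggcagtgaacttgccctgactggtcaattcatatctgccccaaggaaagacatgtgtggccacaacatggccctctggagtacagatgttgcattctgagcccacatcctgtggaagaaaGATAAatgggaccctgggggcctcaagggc

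These windows are chr3:20242182-20242431 on the minus strand for Cpa3, chr14:56062311-56062560 on the minus strand for Mcpt4, chr14:55944676-55944925 on the minus strand for Cma1 and chr17:25298144-25298393 on the plus strand for Prss34. The match began 45 bases before the start in Cpa3, 102 in Mcpt4, 194 in Cma1 and 30 in Prss34. Of 32851 promoter windows of the same length in the table, 22.6% held GATAA on either strand. Among the 25 genes that were highest in mast cells over other cells (below), 19 had a window and 9 of the 19 held a match.

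The share of mast cells among kept cells was lowest in both PD1 knockout libraries and highest in Het_MI. All cells that met the definition made up 0.183% in KO_MI (95% Clopper-Pearson interval 0.0975 to 0.313%), 0.187% in KO_sham (0.0968 to 0.327%), 0.572% in Het_MI (0.383 to 0.820%) and 0.335% in Het_sham (0.199 to 0.529%). The interval of Het_MI does not meet that of either knockout library, while that of Het_sham overlaps all the others. The ratio of shares was 0.320 for KO_MI over Het_MI (exact conditional interval 0.153 to 0.636) and 0.977 for KO_MI over KO_sham (0.411 to 2.34). It was 1.71 for Het_MI over Het_sham (0.916 to 3.26) and 0.559 for KO_sham over Het_sham (0.246 to 1.23).

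Protease-rich cells alone gave another order. They made up 0.169% in KO_MI (12 cells), 0.172% in KO_sham (11 cells), 0.572% in Het_MI (29 cells) and 0.186% in Het_sham (10 cells), so that Het_MI stood above 3 libraries of like share. The ratio was then 0.296 for KO_MI over Het_MI (0.137 to 0.597), 3.07 for Het_MI over Het_sham (1.46 to 7.07), 0.984 for KO_MI over KO_sham (0.397 to 2.46) and 0.923 for KO_sham over Het_sham (0.356 to 2.42). With the protease-rich droplets that Prss34 or Mcpt8 had kept out, the counts were 20, 20, 44 and 13 in KO_MI, KO_sham, Het_MI and Het_sham, and Het_MI over Het_sham came to 3.59 (1.90 to 7.26). Among cells with Xist and no Y-linked UMI, KO_MI over Het_MI was 0.420 (0.111 to 2.34) and Het_MI over Het_sham 0.892 (0.138 to 4.58), from 3 mast cells in Het_MI, too few to show a difference. A share of sorted cells moves with the number of other leukocytes as well as with that of mast cells, and these cannot be told apart here.

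**Figure D2:**
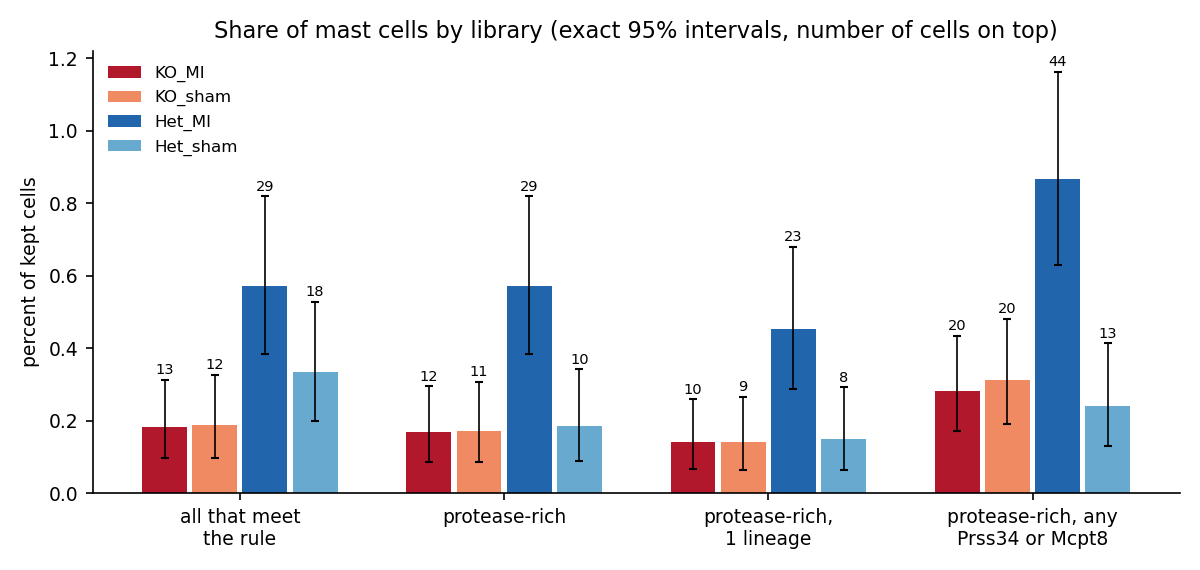
Bars give mast cells as a percent of kept cells in KO_MI, KO_sham, Het_MI and Het_sham, with exact 95% intervals and the number of cells on top, under 4 definitions. In all 4 the bar of Het_MI is the highest, and the Het_sham bar is near the knockout bars where droplets poor in protease RNA are left out (0.186% without them and 0.335% with them).

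Granule protease RNA took a near constant part of the RNA of these cells. Cpa3, Mcpt4, Cma1 and Tpsb2 together made up 14.2% of all UMIs in KO_MI, 13.1% in KO_sham, 15.0% in Het_MI and 14.9% in Het_sham, and in single cells 5.74% to 23.2% with a median of 13.8%. Counts are of 3' ends and do not scale with gene length. Levels below are UMIs per 1000000 UMIs of the cells (CPM). Cma1, the chymase closest to the human enzyme, was the most abundant of the 4 at 58717 CPM in KO_MI, 50230 in KO_sham, 59217 in Het_MI and 65474 in Het_sham, with at least 67 UMIs in every one of the 50 cells. The chymase Mcpt4 was at 37936, 41207, 44414 and 42863 CPM in the same order. All 4 libraries lay within a narrow band for both genes. The tryptase Tpsb2 was at 22682, 20045, 24697 and 20807 CPM, and Cpa3 at 23058, 19260, 22008 and 19582 CPM, with 553.6 CPM of Cpa3 and 3.3 CPM of Cma1 in 109 basophil-like cells (at least 5 UMIs of Mcpt8 and Prss34 together and, by choice, at most 2 of Mcpt4, Cma1 and Tpsb2). These levels chose the cells and are a description. In 1 KO_MI cell Mcpt4 was at 0 of 5106 UMIs beside 444 UMIs of Cma1. Tpsab1, a tryptase outside the definition, was at 951, 1138, 1095 and 1017 CPM and in 45 of 50 cells. Tpsg1, the transmembrane tryptase, had 4, 20, 32 and 1 UMIs. The mucosal protease Mcpt1 had 1 UMI in the 50 cells.

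**Figure D3:**
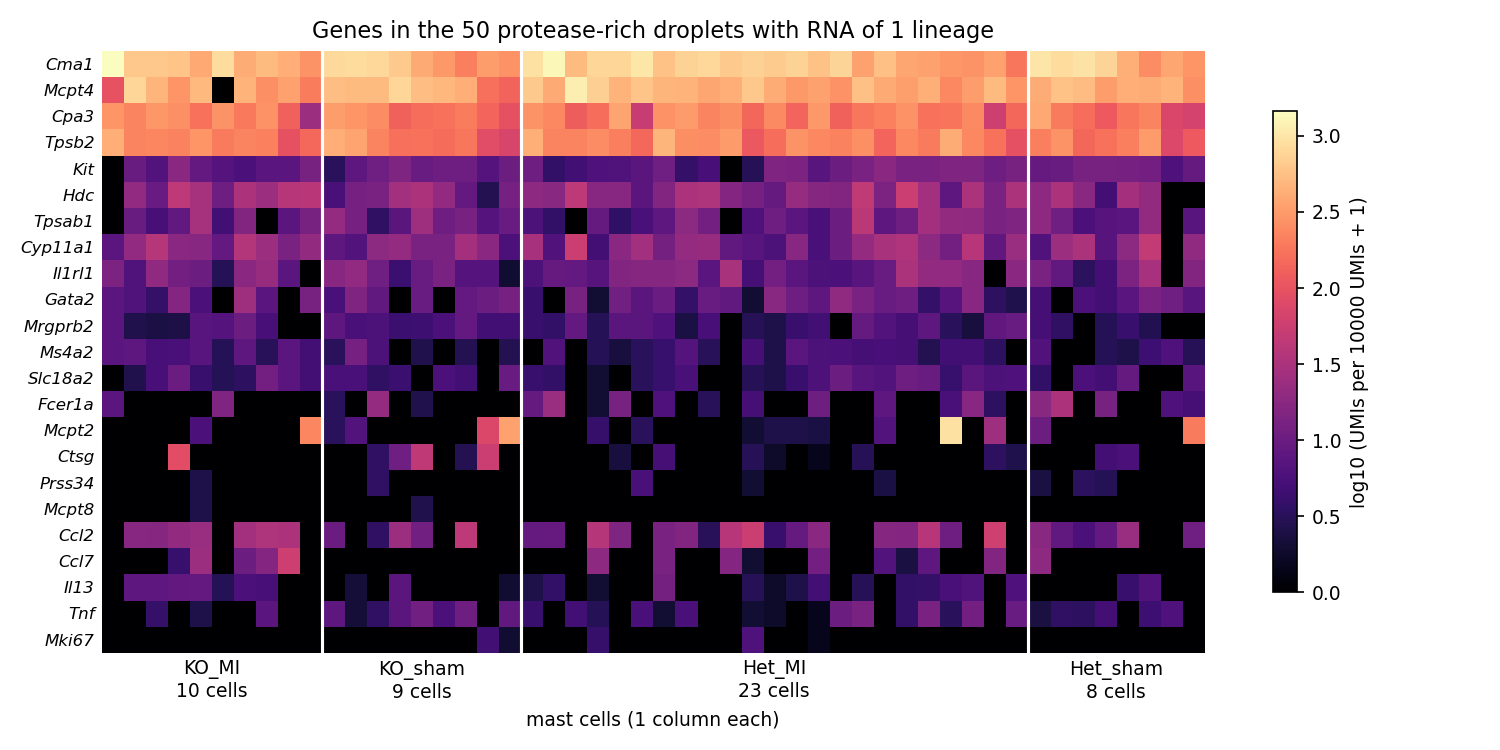
Each column is 1 of the 50 mast cells, grouped as KO_MI (10), KO_sham (9), Het_MI (23) and Het_sham (8) and sorted within a library by the share of the 4 proteases, and colour gives log10 of UMIs per 10000 UMIs plus 1. The upper rows are filled in nearly all cells of all libraries, whereas Mcpt2 and Ctsg are high in single cells, up to 1231 UMIs and 57 UMIs.

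Mcpt2, the mucosal-type chymase, was uneven. It had 61 UMIs in KO_MI, 425 in KO_sham, 1256 in Het_MI and 102 in Het_sham, in 17 of the 50 cells. A Het_MI cell held 1231 of these UMIs, 9.36% of its RNA, and a KO_sham cell held 380. In all, 6 cells had at least 10 UMIs, 1 in KO_MI, 2 in KO_sham, 2 in Het_MI and 1 in Het_sham, so that every library had at least 1. In these 6 cells, the 4 core proteases took 5.74% to 11.3% of UMIs with a median of 7.28%, against a median of 13.8% in the 33 cells without Mcpt2 and 16.1% in the 11 cells with 1 to 9 UMIs. Cpa3 was at 11553 CPM in the 6 cells and at 22492 CPM in the 33, and Mcpt4 at 23057 and 44660 CPM, while Kit was at 1039 and 918 CPM. Grouping cells by Mcpt2 was done after its values were seen.

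Ctsg, the cathepsin G protease, had 57 UMIs in KO_MI, 59 in KO_sham, 12 in Het_MI and 5 in Het_sham. All 57 in KO_MI came from 1 cell, whereas 5 of 9 cells had it in KO_sham (up to 29 UMIs), 8 of 23 in Het_MI (up to 4 UMIs) and 2 of 8 in Het_sham (up to 3 UMIs). Among these mast cells, both knockout libraries thus held a cell with at least 25 UMIs and neither heterozygous library held a cell above 4 UMIs. The KO_MI value is that of 1 cell. Outside them the split did not hold, since a protease-rich Het_sham member with RNA of another lineage held 7 UMIs. A Het_MI droplet left out for Mcpt8 held 20 UMIs, and a KO_sham droplet left out for Prss34 held 21. Of the 17 cells with Mcpt2 and the 16 with Ctsg, 5 had both. In B cells, 0.0776% had a UMI of Mcpt2 and 0.0582% a UMI of Ctsg.

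Genes of the granule and its amines were present in most cells, and Srgn varied less between libraries than Hdc or Tph1. Srgn, the proteoglycan core that holds proteases and histamine in the granule, was at 9595 CPM in KO_MI, 8257 in KO_sham, 8282 in Het_MI and 9594 in Het_sham. Hdc, which makes histamine, was at 2388, 1334, 1987 and 1734 CPM in the same order and in 47 cells. Tph1, which starts serotonin synthesis, was at 332, 647, 446 and 532 CPM, against 18.2 CPM in basophil-like cells. KO_MI was the highest library for Hdc and the lowest for Tph1. Slc18a2, which loads amines into granules, was at 464, 412, 393 and 324 CPM, and the serotonin transporter Slc6a4 at 398, 235, 303 and 393 CPM. Serpinb1a, an inhibitor of serine proteases of the neutrophil elastase and cathepsin G kind, was in all 50 cells at 3382, 3040, 2570 and 4393 CPM, 154-fold the level of all other cells. Rab27b, a small GTPase of granule release, was at 663, 392, 791 and 601 CPM.

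Among receptors, the chains of FcεRI behaved differently from one another. The signalling chain Fcer1g, which macrophages share, was in all 50 cells at 3626 CPM in KO_MI, 3217 in KO_sham, 2903 in Het_MI and 4485 in Het_sham. The beta chain Ms4a2 was at 486, 333, 321 and 231 CPM and in 41 cells. The IgE-binding alpha chain Fcer1a was found in 22 cells only, with 8, 10, 77 and 46 UMIs or 177, 196, 458 and 1063 CPM. It was low in both knockout libraries and highest in Het_sham, where 1 cell held 25 of the 46 UMIs. When cells of at least 2500 UMIs were thinned to 2500 UMIs (5 of the 50 cells left out), Fcer1a was seen in 1 of 8 cells of KO_MI (12.5%, exact interval 0.316 to 52.7%), 2 of 9 of KO_sham (22.2%, 2.81 to 60.0%), 10 of 21 of Het_MI (47.6%, 25.7 to 70.2%) and 4 of 7 of Het_sham (57.1%, 18.4 to 90.1%), against 1, 3, 12 and 4 before thinning. These intervals all overlap. In B cells 0.116% had a UMI.

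Kit was at 818, 824, 922 and 971 CPM in KO_MI, KO_sham, Het_MI and Het_sham and in 48 cells. Il1rl1, the interleukin 33 receptor, was at 1105, 902, 1166 and 1133 CPM. The receptors Mrgprb1, at 1282, 1000, 768 and 647 CPM, and Mrgprb2, at 376, 471, 399 and 208 CPM, had no UMI in basophil-like cells. Among these mast cells Mrgprb1 was higher in both knockout libraries than in either heterozygous one, from 51 UMIs in KO_sham and 28 in Het_sham. The protease-rich droplets left out for Prss34 or Mcpt8, some with RNA of another lineage, did not repeat this order. Their median was 0.5 UMIs of Mrgprb1 in KO_MI (8 droplets) and 6 in Het_MI (15 droplets). It was 2 in KO_sham (9 droplets) and 0 in Het_sham (3 droplets). Adora3, an adenosine receptor of mast cells, was at 553, 216, 315 and 139 CPM, and the inhibitory family member Cd200r3 at 730, 412, 500 and 601 CPM.

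Lipid mediator and transcription factor genes completed the profile. Alox5ap, which presents arachidonic acid to 5-lipoxygenase, was at 774, 451, 613 and 855 CPM, and Hpgds, a prostaglandin D2 synthase, at 265, 490, 226 and 370 CPM. Ltc4s, the leukotriene C4 synthase, had 1 UMI in the 50 cells. Gata2 was at 774, 843, 726 and 532 CPM, and Mitf, a transcription factor needed for mast cell maturation, at 243, 196, 184 and 116 CPM. For both factors Het_sham was the lowest library.

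RNA of some cytokine and chemokine genes was found in part of the cells. Il13 had 24 UMIs in KO_MI, 4 in KO_sham, 45 in Het_MI and 5 in Het_sham (531, 78.5, 268 and 116 CPM), in 26 cells, and 0.349% of B cells had a UMI. The Il13 values of both infarct libraries were above those of both sham libraries, which rest on 4 and 5 UMIs. The protease-rich droplets left out for Prss34 or Mcpt8, some with RNA of another lineage, did not repeat this order in full. Their median was 2 UMIs of Il13 in KO_MI (8 droplets) and 0 in KO_sham (9 droplets). It was 1 in Het_MI (15 droplets) and 4 in Het_sham (3 droplets), where 1 droplet held 17 of 21 UMIs. Tnf had 6, 28, 53 and 9 UMIs (133, 549, 315 and 208 CPM), and in other cells it was at 420, 580, 587 and 205 CPM. Ccl2, a chemokine for monocytes, was at 1724, 785, 1642 and 994 CPM and in 35 cells. Ccl7, its neighbour in function, had 37, 0, 73 and 13 UMIs in 15 cells, each of which also had Ccl2. RNA of both chemokines was widespread in the libraries: 24.9% of B cells had a UMI of Ccl2 and 16.9% of Ccl7, so that a UMI of either in a mast cell is not read as expression, and the share of mast cells with a UMI was 70% for Ccl2 and 30% for Ccl7. In other cells Ccl7 was at 236, 363, 299 and 147 CPM, with the highest level in KO_sham, the library where none of the 9 mast cells had a UMI. The part of this RNA in the mast cell values was not tested.

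A minority of mast cells carried RNA of dividing cells. A sum of at least 5 UMIs over 10 mitosis genes (Mki67, Top2a, Birc5 and others) was seen in 1 of 10 cells in KO_MI, 1 of 9 in KO_sham, 3 of 23 in Het_MI and 0 of 8 in Het_sham, that is, in 5 of 50 (10%, exact interval 3.33 to 21.8%), while 42 of the 50 had none of these UMIs. Of all other cells 17.4% passed the same sum. These 5 cells kept their proteases, at 7.16% to 18.9% of UMIs. PD1 itself was not detectable at this depth. Pdcd1 had 0 UMIs in 72 cells, which allows up to 3.61 CPM, but this pools both genotypes and the droplets with T cell genes. The limit was 7.80 CPM in Het_MI and 11.9 CPM in Het_sham alone, and 17.8 and 69.4 CPM in their cells among the 50. In other cells Pdcd1 was at 6.26, 1.16, 2.19 and 1.29 CPM, the highest in a knockout library, and at 2.93 CPM over all. Its ligand Cd274 (PD-L1) had 1, 3, 6 and 1 UMIs in the 50 mast cells (22.1, 58.8, 35.7 and 23.1 CPM), against 19.2, 19.8, 17.8 and 24.2 CPM in other cells, and Pdcd1lg2 (PD-L2) had 2 UMIs. A Cd274 UMI was seen in 16% of the 50 mast cells and in 17.6% of B cells, so that its level in mast cells is not read as expression. B2m, the light chain of MHC class I, was at 1304, 706, 756 and 670 CPM in mast cells and at 1906, 1480, 1557 and 1444 CPM in other cells. The heavy chain H2-K1 was at 575, 333, 369 and 185 CPM in mast cells and at 1321, 784, 838 and 721 CPM in other cells, lower in each library as for B2m. H2-T23, a nonclassical heavy chain, was at 155, 157, 107 and 116 CPM in mast cells. In other cells it was at 91.1, 69.1, 82.6 and 97.0 CPM. The mast cell values rest on few UMIs (3 counts are 66.3, 58.8, 17.8 and 69.4 CPM), so that no difference from other cells is read.

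Of the genes outside the definition with at least 100 UMIs in mast cells and over 100 CPM in each library, the 25 with the highest ratio to all other cells were largely mast cell genes. This is a description, since the definition selects them. The ratio was 4122 for Mcpt2, 1222 for Tpsab1, 1033 for Mrgprb1, 943 for Tph1 and 776 for Mrgprb2. It was also high for genes less often used as markers, at 895 for Rprm, 689 for the phospholipid flippase Atp8b5, 510 for Slc45a3 and 228 for Cyp11a1, the enzyme that starts steroid synthesis from cholesterol. Cyp11a1 was in 49 of the 50 cells at 1645 CPM, beside 1124 CPM in basophil-like cells, and Fdx1, the ferredoxin that passes electrons to it, was also among the 25 (ratio 22.1). Basophil-like cells shared Hdc (2963 CPM), Gata2 (864 CPM), Cd200r3 (578 CPM) and Ms4a2 (502 CPM), and had no UMI of Tpsab1, Mrgprb1, Mrgprb2, Rprm, Atp8b5 or Slc45a3.

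The limit on Prss34 left out droplets with levels of mast cell genes close to those of the members. Of 97 protease-rich droplets, 35 were kept out (36.1%, 26.6 to 46.5%), 32 of them by Prss34, with 8 of 20 in KO_MI, 9 of 20 in KO_sham, 15 of 44 in Het_MI and 3 of 13 in Het_sham. Taking the 23 Prss34 droplets with fewer than 3 UMIs of each other lineage, Cma1 was at 58534 CPM in the 50 mast cells and 69711 CPM in the 23 droplets, Mcpt4 at 42712 and 41758 CPM, Tpsb2 at 23082 and 27683 CPM and Kit at 897 and 1158 CPM. Tpsab1 (1070 and 888 CPM), Mrgprb2 (380 and 518 CPM), Tph1 (475 and 398 CPM), Serpinb1a (3024 and 2770 CPM) and Cyp11a1 (1645 and 1818 CPM) were as close, and none of these chose the droplets. Prss34 was at 29.3 CPM in the 50 mast cells, 4432 CPM in the 23 droplets (3 to 72 UMIs each) and 2549 CPM in basophil-like cells. Mcpt8 was at 6.5 CPM, 0 UMIs and 5285 CPM in the same 3 sets. Ifitm1, at 9.8, 14.2 and 14656 CPM, Ccl3, at 0 UMIs, 7.1 and 9763 CPM, and Il6, at 39.0, 49.7 and 1319 CPM, likewise set the basophil-like cells apart. Prss34, Mcpt8 and the 3 proteases chose the sets, and Ifitm1, Ccl3 and Il6 did not. By these last 3 genes the 23 droplets lay with the mast cells and not with the basophil-like cells. Mcpt2 was at 5996 and 114 CPM in the 50 cells and the 23 droplets, and 1231 of its UMIs came from 1 cell of the 50 and 380 from another. The 3 droplets kept out by Mcpt8 were different again, with 52 UMIs of Kit, 674 UMIs of Cpa3 and 1318 UMIs of Cma1 but no UMI of Tpsab1 or Mrgprb2.

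**Figure D4:**
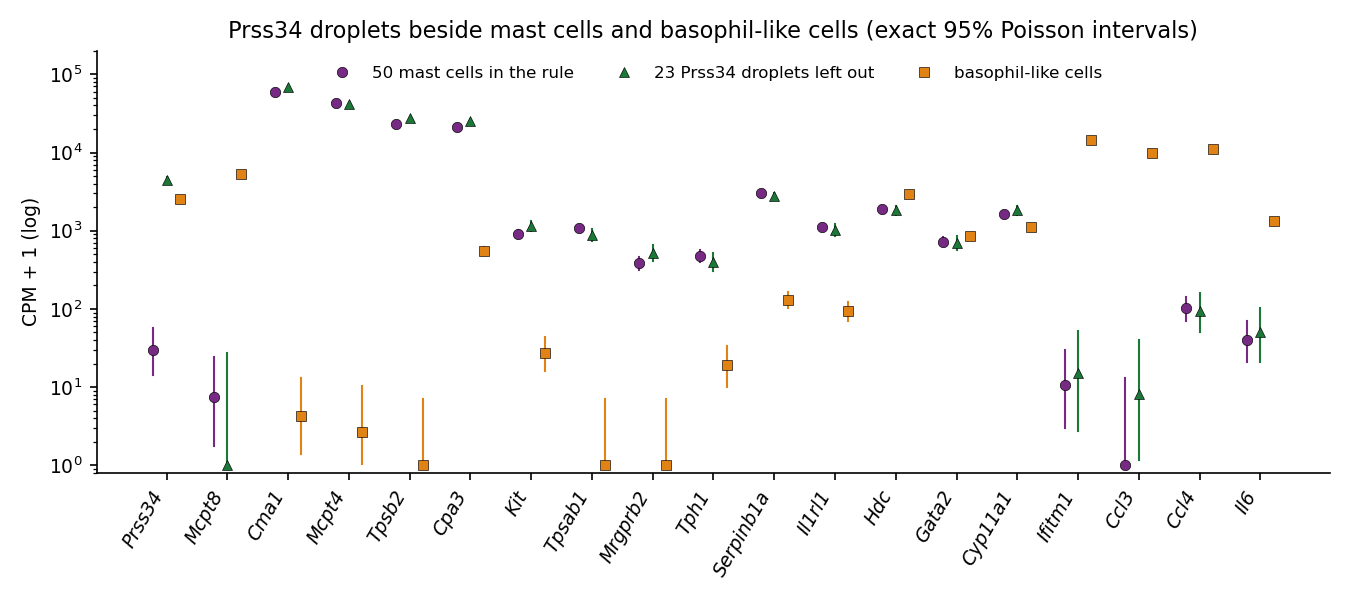
For each gene on the x axis, the log y axis gives CPM plus 1 with exact 95% Poisson intervals in 50 mast cells that meet the definition (circles), 23 Prss34 droplets left out by it (triangles) and 109 basophil-like cells (squares). Circles and triangles lie close together for the genes shown other than Prss34, Mcpt8 and Ccl3. For Mcpt8 (2 and 0 UMIs) and Ccl3 (0 and 1 UMIs) the distance rests on few UMIs. Squares lie apart for Cma1, Mcpt4, Tpsb2, Cpa3, Tpsab1, Mcpt8, Ifitm1 and Ccl3.

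Between libraries, a gene was called past 1.5-fold where the nearer bound of the exact 95% interval of its ratio lay beyond 1.5-fold, among genes with at least 30 UMIs over both libraries. This is a rule of size for 2 libraries, not a test of a condition. In KO_MI over Het_MI, the comparison of PD1 genotype after infarction, 14 of 990 genes were past it in the 50 mast cells (1.41%), 9 higher (0.909%) and 5 lower (0.505%), and 117 of 2310 in all 72 (5.06%), 24 higher (1.04%) and 93 lower (4.03%). Of 8 proteases measured in the 50 cells, Ctsg was past 1.5-fold on the higher side and Mcpt2 on the lower side. Ctsg had 57 UMIs in KO_MI and 12 in Het_MI (log2 ratio 4.14, interval 3.23 to 5.18), all 57 in 1 cell, and without that cell KO_MI was at 0 UMIs, below Het_MI. Mcpt2 had 61 and 1256 UMIs (−2.47, −2.87 to −2.10), and without the highest cell of each library the log2 ratio was −1.20. The other proteases lay close to equal, with a list median of −0.16, beside −0.01 over all 990 genes. None of 11 granule and amine genes, 8 IgE receptor genes, 9 other receptors or 8 transcription factors was past 1.5-fold.

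The other genes past it in KO_MI over Het_MI were not mast cell granule genes. The signalling adaptor Tyrobp had 167 UMIs in KO_MI and 324 in Het_MI (3692 and 1928 CPM, log2 ratio 0.94), and Apoe, which macrophages make in large amounts, 139 and 181 (1.51). Apoe was at 3073 CPM in the mast cells of KO_MI and at 12880 CPM in its other cells, and the part of free RNA in the mast cell value was not tested. Rgs1, a regulator of G protein signalling (1.27), Klf2 (1.89), Crip1 (1.26) and Sh3bgrl3 (1.12) were also higher, of which Klf2 had 75% and Crip1 68.3% of its KO_MI UMIs in 1 cell. Rexo2, a mitochondrial RNA exonuclease (2 and 58 UMIs, −2.96), Ccrl2, an atypical chemoattractant receptor (2 and 45 UMIs, −2.60), and Spty2d1 (4 and 65 UMIs, −2.13) were lower. Xist (2.63) and the Y-linked gene Ddx3y (0 and 46 UMIs) followed the sex of the libraries. Mrgprb1 (0.74, 0.27 to 1.20) and Csf2rb, the shared receptor chain for interleukin 3 and GM-CSF (1.17, 0.29 to 2.02), were above 0 without passing 1.5-fold. In all 72 cells, of the genes named by rule, Dapp1 (1.48) and Isg15 (1.11) were past 1.5-fold on the higher side, and Tab2 (−2.76), Ppp1r15a (−1.20) and Slc6a6 (−1.78) on the lower side. Ppp1r10, Serpinb1a, Mrgprb1 and Il13 lay above 0, and Spty2d1, Sbds and Hnrnpul2 below 0, without passing it.

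In Het_MI over Het_sham, the comparison of infarction in heterozygous mice, 9 of 974 genes were past 1.5-fold in the 50 mast cells (0.924%), 5 higher (0.513%) and 4 lower (0.411%), and 556 of 3030 in all 72 (18.3%), 300 higher (9.9%) and 256 lower (8.45%). In the 50 cells, Fcer1a had 77 UMIs in Het_MI and 46 in Het_sham and was lower in CPM (458 and 1063 CPM, log2 ratio −1.21, interval −1.76 to −0.66), with −0.62 when the highest cell of each library was left out. The stress gene Gadd45b (134 and 12 UMIs, 1.52, 0.67 to 2.51) and the immediate early gene Egr3 (30 and 0 UMIs) were higher. With 3 counts in place of the 0, Egr3 was 2.57-fold higher, a value without an interval. Of 24 immediate early genes measured, Egr3 was the only one past 1.5-fold on the higher side and Klf2 (16 and 16 UMIs, −1.96) the only one on the lower side, and the list median was 0.41 beside 0.04 over all genes. Jun (0.96, 0.47 to 1.48) and Cdkn1a (1.35, 0.45 to 2.39) lay above 0 without passing 1.5-fold. Mcpt2 was at 1.66, and at −0.18 without the highest cell of each library. Of 7 proteases measured no other was past 1.5-fold, and the list median was 0.17. Aldoa, a glycolytic enzyme, was lower (−1.39).

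All 72 cells included droplets poor in protease RNA and droplets with RNA of another lineage, and the part of each in the 556 calls was not tested. The 62 protease-rich cells gave 73 calls among 2158 genes and the 50 mast cells 9 among 974, at lower totals of UMIs. In Het_sham, where 6 droplets with T cell genes held 72.8% of the UMIs, the 4 core proteases made up 2.96% of UMIs in all 72 and 14.9% in the 50. All 8 proteases measured in all 72 were then higher in Het_MI (list median 1.65), and so were Ccl2 (379 UMIs in Het_MI and 60 in Het_sham, 2.05), Car8 (3.48), Ubash3b, Nfkbiz (2.62), Lilr4b and Phlda1. The genes lower in Het_MI included Nkg7 (4 and 54 UMIs, −4.37), Sox4, Dut (−2.62), Hist1h2ae, Plac8 (119 and 359 UMIs, −2.20) and Cdv3, genes of lymphocytes or of DNA replication and histones among them. In the 50 mast cells, Cma1 came to −0.14 and Plac8 to 1.88.

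In KO_MI over KO_sham, the comparison of infarction in knockout mice, 11 of 418 genes were past 1.5-fold in the 50 mast cells (2.63%), 8 higher (1.91%) and 3 lower (0.718%), and 74 of 925 in all 72 (8%), 21 higher (2.27%) and 53 lower (5.73%). Ccl7, whose UMIs are not read as expression (above), had 37 UMIs in KO_MI and none in KO_sham. With 3 counts in place of the 0 it was 13.9-fold higher, a value without an interval. The 0 holds for the 9 KO_sham cells only. In KO_sham, 1 of 11 protease-rich members held 12 UMIs of Ccl7, and 5 of 9 left-out droplets held 11. Hs3st1, a heparan sulfate sulfotransferase that modifies granule heparin-like chains, had 38 and 10 UMIs (log2 ratio 2.10, interval 1.07 to 3.27). Plek had 39 and 9 UMIs (2.29), Ctla2a 54 and 16 (1.93) and Lst1 44 and 16 (1.63), and Apoe again was higher (1.62). In KO_MI, the highest cell held 17 of the 39 UMIs of Plek and 29 of the 54 UMIs of Ctla2a for each gene taken alone. Mcpt2 had 61 and 425 UMIs (−2.63, −3.04 to −2.24), and −3.99 without the highest cell of each library. Tnf (6 and 28 UMIs, −2.05) and the immediate early gene Ier3 (16 and 110 UMIs, −2.61) were lower, and Ier3 had 50.9% of its KO_sham UMIs in 1 cell. The protease list median was 0.12 and that of 8 granule and amine genes 0.19, beside 0.02 over all genes. Hdc (0.84, 0.39 to 1.30), Cyp11a1 (0.83, 0.35 to 1.31) and Ccl2 (1.14, 0.57 to 1.72) lay above 0 without passing 1.5-fold. In all 72 cells, Isg15 (1.99) was past 1.5-fold on the higher side, and Ier3 (−2.19), Hsp90b1 (−1.70), Nfkbia (−1.05) and Ppp1r15a (−1.27) on the lower side, while Rgs1 (1.34) and Hdc (0.94) lay above 0 without passing it.

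In KO_sham over Het_sham, the comparison of genotype without infarction, 8 of 382 genes were past 1.5-fold in the 50 mast cells (2.09%), 6 higher (1.57%) and 2 lower (0.524%), and 332 of 1762 in all 72 (18.8%), 163 higher (9.25%) and 169 lower (9.59%). Ctsg had 59 UMIs in KO_sham and 5 in Het_sham (log2 ratio 3.32, interval 2.02 to 5.0) and was at 3.60 without the highest cell of each library. Mcpt2 had 425 and 102 UMIs (1.82, 1.51 to 2.15) and was at 2.61 without them. Fcer1a had 10 and 46 UMIs (−2.44, −3.59 to −1.43). Ier3 (110 and 26 UMIs, 1.84), the histone demethylase gene Kdm6b (36 and 7 UMIs, 2.13) and Hmgb2 (45 and 13 UMIs, 1.55) were higher, and mt-Cytb was lower (−0.99). In KO_sham, the highest cell held 26 of the 45 UMIs of Hmgb2, and Ier3 likewise drew much of its value from a single cell (above). Cma1 lay below 0 without passing 1.5-fold (−0.38, −0.46 to −0.30), and the medians of 7 proteases (−0.02) and 7 granule and amine genes (−0.04) were beside 0.01 over all genes. In all 72 cells, Ly6d (0 and 106 UMIs) and Pclaf (0 and 104 UMIs) were lower, with nearer bounds of the log2 ratio at −3.58 and −3.55. The 7 proteases measured were all higher with a list median of 1.55, again beside the Het_sham droplets with T cell genes.

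Set side by side over the 50 mast cells, the log2 ratios of KO_MI over Het_MI and KO_sham over Het_sham, which share no library, were 4.14 and 3.32 for Ctsg and −1.37 and −2.44 for Fcer1a, the same side in both. They were −2.47 and 1.82 for Mcpt2. Those of Het_MI over Het_sham and KO_MI over KO_sham, which share none either, were 1.66 and −2.63 for Mcpt2 and 0.72 and 1.14 for Ccl2. For Fcer1a, KO_MI over Het_MI did not pass 1.5-fold (interval −2.64 to −0.32). In the 62 protease-rich cells the CPM of Fcer1a was higher in KO_MI than in Het_MI. Ctsg was the only gene past 1.5-fold in 1 direction in both genotype comparisons, which in KO_MI over Het_MI rests on 1 KO_MI cell without which the direction turns, and the gene model Gm42418, which overlaps ribosomal RNA, (1.18 and 0.82) the only one in both infarct comparisons.

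**Figure D5:**
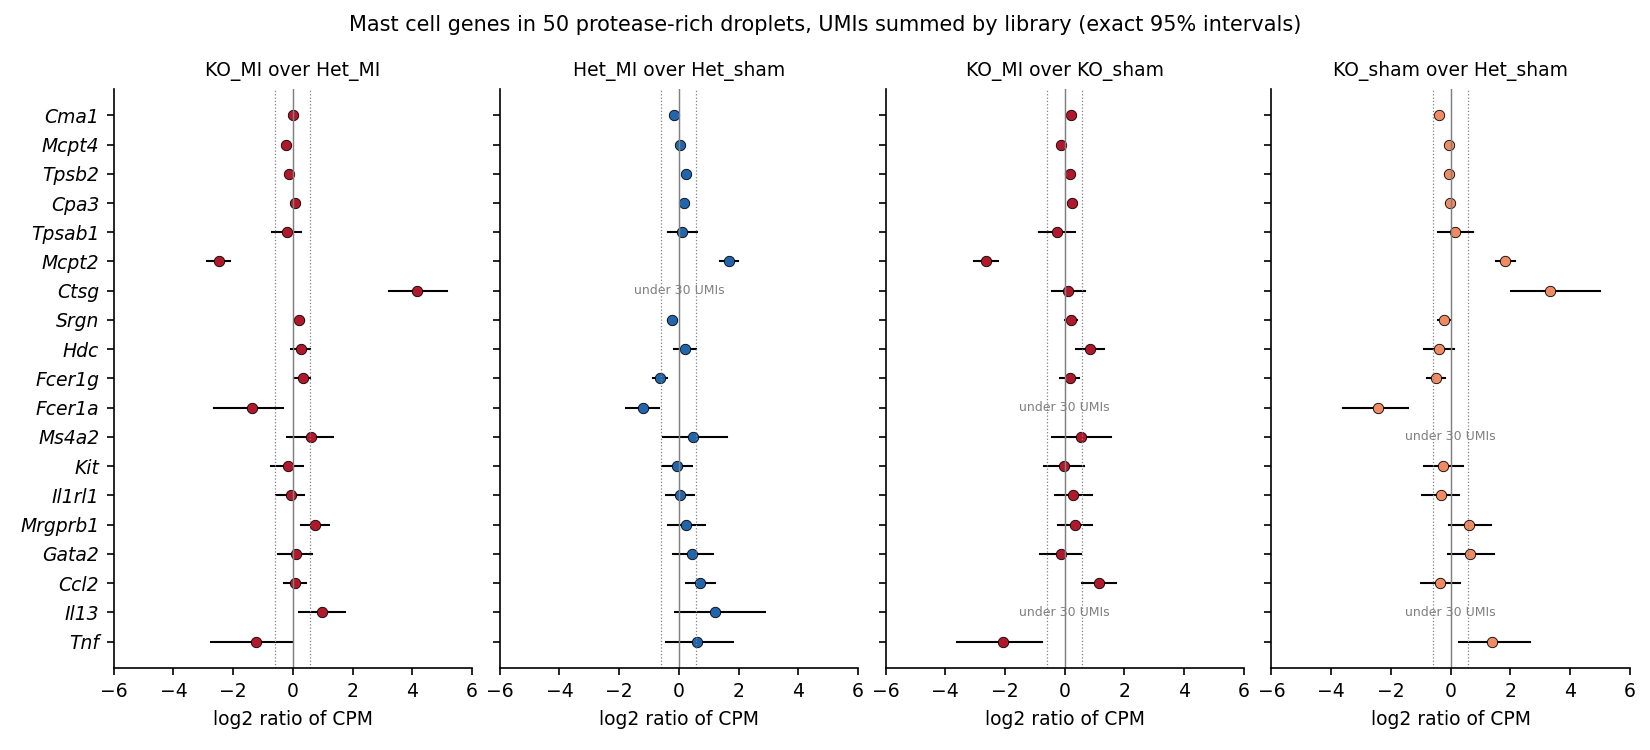
Points give the log2 ratio of CPM in the 50 mast cells with exact 95% intervals, for KO_MI over Het_MI, Het_MI over Het_sham, KO_MI over KO_sham and KO_sham over Het_sham, and dotted lines mark 1.5-fold. Core proteases and Srgn, Kit and Il1rl1 lie near 0 in all 4 panels, while Mcpt2, Ctsg and Fcer1a lie farther out (Ctsg at 4.14 in the first panel).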

How the data were processed

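CD45+ heart cells were sorted and sequenced with 10x 3' chemistry. The deposited values are UMI counts per gene and cell barcode for 32285 genes, not normalized, which the authors made with Cell Ranger on mm10, per the file headers. The submitters' processing notes name Cell Ranger 6.1.1 and Seurat 4, whereas the file headers name version 4.0.0. The members and gene lists were chosen with earlier results of these data known.

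Cells with at least 500 UMIs, 200 genes and at most 10% mitochondrial UMIs were kept. The kept cells numbered 7104 in KO_MI, 6407 in KO_sham, 5074 in Het_MI and 5376 in Het_sham, with medians of 7469.5, 7452, 8632 and 6559.5 UMIs. Raw counts were summed over mast cells per library and divided by their total (CPM). The precision follows from totals of 88103 UMIs in the 72 members in KO_MI, 106778 in KO_sham, 384419 in Het_MI and 251623 in Het_sham. With 1 library per group no test was run, and intervals are exact 95% binomial, Poisson or conditional binomial ones. They cover counting error only. The interval code was tested on simulated data. No doublet caller was run, and droplets with at least 3 UMIs of any of 6 other lineages were set aside as an alternative.

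Genes named are those of the definition, Pdcd1, Cd274 and Pdcd1lg2, and up to 6 members of each gene list (past 1.5-fold or with most UMIs). For each comparison they also are the 6 with the highest and lowest nearer bounds. These had at least 50 UMIs over both libraries, at least 100 CPM in the higher one, a level not under that of other cells, and at most 30% of UMIs in 1 cell, without mitochondrial, ribosomal, haemoglobin, sex-linked, receptor segment and unnamed genes. Any other gene named was chosen after its values were seen, as were the protease-rich cells, the 50 cells and the groups by Mcpt2. Alternatives covered thresholds, filters, scaling (total, edgeR TMM and median-of-ratios factors) and single cells left out. Those on protease-rich cells, on droplets with Prss34 or Mcpt8 and on the gate without Hdc were added after seeing the data. Tools were Python 3.11.15, numpy 2.4.6, scipy 1.17.1, pandas 2.3.3, matplotlib 3.10.9, R 4.3.3 and edgeR 4.0.16, which served for scaling factors only.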

Additional observations from a re-analysis of the deposited data

Results flagged for a closer look

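Mcpt2 in the 50 mast cells stood out because its ratio of infarct over sham pointed in opposite directions in the genotypes. The log2 ratio was −2.63 in PD1 knockout mice (61 UMIs in KO_MI and 425 in KO_sham) and 1.66 in heterozygous mice (1256 UMIs in Het_MI and 102 in Het_sham). The difference between the genotypes was not tested, since each group is 1 library. The values rest on single cells: 58 of the UMIs in KO_MI, 380 in KO_sham, 1231 in Het_MI and 95 in Het_sham came from 1 cell each.

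Outside the definition, 35 protease-rich droplets appeared in the data that the comparisons between libraries did not use, kept out by Prss34 in 32 and by Mcpt8 in 3. They were found in all 4 libraries, 8 in KO_MI, 9 in KO_sham, 15 in Het_MI and 3 in Het_sham.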

How the results depend on the processing

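No paired analysis was possible because each group is 1 library. The limits are 10, 9, 23 and 8 mast cells in KO_MI, KO_sham, Het_MI and Het_sham, at which single cells set the values of uneven genes, and a KO_MI library with almost no Y-linked RNA. Over 12 alternatives, the ratio of shares ran from 0.232 to 0.632 for KO_MI over Het_MI, 0.892 to 3.59 for Het_MI over Het_sham, 0.871 to 1.32 for KO_MI over KO_sham and 0.409 to 1.29 for KO_sham over Het_sham. Het_MI over Het_sham was 1.71, against 0.892 in cells with Xist and no Y-linked UMI and 3.59 with protease-rich droplets of any Prss34 or Mcpt8 count, under which KO_sham over Het_sham was 1.29 in place of 0.559.

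Counts of genes past 1.5-fold moved with the cells taken, which also moved the UMIs and the number of genes measured, and the cause was not tested. Without droplets with RNA of another lineage, the count was 14 in KO_MI over Het_MI (117 in all 72), 40 in Het_MI over Het_sham (556), 11 in KO_MI over KO_sham (74) and 23 in KO_sham over Het_sham (332), and the genes measured were 990, 1057, 418 and 467, in place of 2310, 3030, 925 and 1762. In the 50 cells the counts were 14, 9, 11 and 8. In the 62 protease-rich cells they were 122 in KO_MI over Het_MI, 73 in Het_MI over Het_sham, 30 in KO_MI over KO_sham and 28 in KO_sham over Het_sham. With a minimum of 10 UMIs KO_MI over KO_sham had 170, with none 191 and without the highest cell of each gene 40. KO_sham over Het_sham had 577 with no minimum.

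These values, as log2 ratios or list medians, changed sign against all 72 cells. In KO_MI over Het_MI, renin-angiotensin genes came to −0.012 without other lineages and in the 50 cells. In Het_MI over Het_sham without other lineages, lipid mediators came to −0.13, cell cycle to 0.37, Hist1h2ae to 0.54, Fcer1g to −0.14 and Itm2b to −0.048. In the 50 cells, IgE receptor genes came to −0.12, lipid mediators to −0.29, heat shock to 0.13, cell cycle to 1.01, Dut to 1.13, Hist1h2ae to 1.04, Plac8 to 1.88, Cdv3 to 0.26, Fcer1g to −0.63, Itm2b to −0.42, Cma1 to −0.14 and Kit to −0.074. In KO_sham over Het_sham without other lineages, cell cycle came to 1.29 and Itm2b to −0.53. In the 50 cells, proteases came to −0.024, granule genes to −0.045, connective tissue type genes to −0.054, heat shock to 0.15, cell cycle to 1.43, renin-angiotensin genes to −0.057, Plac8 to 0.99, Itm2b to −0.91, Cma1 to −0.38, Fcer1g to −0.48, Cpa3 to −0.024, Mcpt4 to −0.057 and Tpsb2 to −0.054. These alternatives leave out some or all of the Het_sham droplets with T cell genes.

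Scaling moved the split of calls in all 72 cells. In Het_MI over Het_sham, 54.0% of calls were higher, against 43.9% with median-of-ratios factors and 61.9% with totals that leave out proteases and mitochondrial genes. In KO_sham over Het_sham it was 49.1%, against 37.7% with TMM and 39.1% with median-of-ratios factors. In the 50 cells, the log2 ratio of the TMM factors was 0.295 in KO_MI over Het_MI and −0.297 in Het_MI over Het_sham. Scaling by them lowered all gene log2 ratios in the first comparison and raised them in the second. Both shifts were larger than the protease list medians there. Ly6d and Pclaf in KO_sham over Het_sham and the MHC class II and matrix remodelling lists in KO_MI over Het_MI, where a library was at 0, have no finite ratio and no alternatives.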
